A study of Mus musculus with 8 samples.

Results

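The cytosolic ribosomal protein genes were followed in Kupffer cells sorted from mouse liver, its resident macrophages, with and without the macrophage receptor Vsig4. Members were chosen by a rule on the symbol, set with earlier results of these data known. The rule took names beginning Rpl or Rps with a number, the stalk genes Rplp0 to Rplp2, and Rpsa. It left out pseudogenes, provisional genes and ribosomal S6 kinases. Of 56691 genes in the table, 90 matched, and the 86 with at least 10 counts in at least 4 libraries were kept, 51 of the large and 35 of the small subunit. Of the others, Rpl10l and Rps12l1 had 0 counts in all 8 libraries, which allows up to 3 counts in each, for counting error only. Rpl32l had 0 to 4 counts and Rpl3l 1 to 9. Just inside the limit lay Rpl39l, with 5 to 16 counts and at least 10 in exactly 4 libraries, KO 4 and WT 1 to 3. Then came Rps3a3 with 21 to 40 and Rps3a2 with 26 to 52. All 86 also passed the filter used for testing.

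The study compared Kupffer cells from Vsig4-deficient mice (KO, Vsig4-/-, 4 libraries) with those of wild-type mice (WT, 4 libraries). All mice had received B16F10 cells, a mouse melanoma line, and carried melanoma metastases in the liver when the cells were taken a week later. Live cells with surface CD45, carried by leukocytes, and Tim-4, carried by Kupffer cells, were sorted, and their RNA was sequenced in bulk. The sources used here do not give strain background, age, sex or the cells in which Vsig4 was deleted. Nothing in the labels ties each library to its own animal; the p-values therefore describe the spread over these libraries, some of which may be technical.

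Each ribosome is built from ribosomal RNA and a full set of ribosomal proteins, so a cell needs the products of these genes in matched amounts. The genes are transcribed at high levels in nearly every cell, and their mRNAs begin with a run of pyrimidines, the 5′ terminal oligopyrimidine (TOP) motif, through which the growth kinase mTORC1 adjusts their translation. Bulk RNA-seq measures the amount of these mRNAs and not how much they are translated.

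Library totals ran from 16994406 to 19513844 counts in KO and from 15264043 to 19445494 in WT. Vsig4 had 9, 6, 2 and 4 counts in KO 1 to 4, against 40604, 46735, 22498 and 25498 in WT 1 to 4, so the targeted gene went with the labels. The Kupffer cell list without Vsig4, 15 genes led by markers such as Clec4f, Marco and Timd4, was present throughout and summed to 7892 to 24201 CPM in KO and 20059 to 35180 CPM in WT; CPM are counts scaled to a common library size by TMM. RNA of the melanoma was present as well. The summed level of 10 melanoma genes, which include Dct, Pmel and Tyrp1 of pigment synthesis, was 2437, 3485, 12376 and 6450 CPM in KO 1 to 4, and 485, 415, 5488 and 4707 CPM in WT 1 to 4. None of the melanoma or Kupffer genes was at 0 in all libraries. Hepatocyte genes summed to 1059 to 1551 CPM in KO and to 1613 to 3004 CPM in WT.

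Ribosomal protein mRNAs were abundant in every library, and their levels were far from equal. Per exonic length (FPKM), 82 members averaged more than 10 over the 8 libraries, with a median of 161 and a range of 40.4-fold. At the top stood Rplp1, an acidic protein of the stalk that recruits elongation factors, with 808 FPKM. Rps3a1, on the platform of the small subunit, followed with 775 FPKM, and Rpl19, which helps bridge the subunits, with 577 FPKM. Rps15, at the head of the small subunit, had 525 FPKM, and Rpl4, which lines the peptide exit tunnel, 477 FPKM. The 4 members below 10 FPKM were Rps4l with 6.64, Rps3a2 with 2.65, Rps3a3 with 2.14 and Rpl39l with 0.72, all copies of another member. Next came Rps10 with 20.0 FPKM, the paralogue Rpl7l1 with 28.3 and Rpl21 with 31.3. The deposited FPKM divide by all annotated exonic bases of a gene. Divided instead by the length of 1 mature mRNA, levels ran from 37.7 CPM per kb for Rpl7l1 to 975 CPM per kb for Rpl10, a range of 25.8-fold over 81 members, so part of the spread in FPKM went with the exonic size used.

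Short pyrimidine runs near the start were more frequent in these genes than in others, though not in all of them. Of 86 members, 62 had a promoter window in RefSeq (GRCm38.p6). CTTTC on the gene's strand, between 20 bases before and 50 after the annotated start, was found in 51.61% of them, against 10.37% of 27025 genes. CTTCC in the same window was found in 40.32% of members and 16.25% of all genes. One or the other was found in 70.97% of members and 24.45% of all genes. CCGGAAG, the core bound by ETS factors, was searched on both strands from 250 bases before to 50 after the start, and was found in 41.94% of members against 9.93% of all genes. The TATA box TATAAA on the gene's strand was found in 9.68% of members and 9.77% of all genes. Starts of 6 members are shown, 3 with the higher and 3 with lower values in KO described next, chosen after their values were seen. Each has 40 bases before the annotated start and 30 from it on. Capitals mark CTTTC or CTTCC from 20 bases before the start on, and CCGGAAG on either strand. The places in GRCm38.p6 are chr17:24720023-24720092 on the plus strand for Rps2, chr11:101442205-101442274 on the plus strand for Rpl27 and chr17:27635215-27635284 on the minus strand for Rps10. They are chr3:130730369-130730438 on the minus strand for Rpl34, the more upstream of 2 windows, chrX:134585614-134585683 on the plus strand for Rpl36a and chr3:90213619-90213688 on the minus strand for Rps27.
Rps2: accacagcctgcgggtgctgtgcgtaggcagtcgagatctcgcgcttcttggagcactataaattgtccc
Rpl27: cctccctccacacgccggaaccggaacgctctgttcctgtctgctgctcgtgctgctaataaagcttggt
Rps10: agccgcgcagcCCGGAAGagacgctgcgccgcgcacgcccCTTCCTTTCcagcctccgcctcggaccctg
Rpl34: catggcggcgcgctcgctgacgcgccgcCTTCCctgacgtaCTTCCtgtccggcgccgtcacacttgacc
Rpl36a: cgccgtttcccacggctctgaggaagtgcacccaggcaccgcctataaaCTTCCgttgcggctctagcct
Rps27: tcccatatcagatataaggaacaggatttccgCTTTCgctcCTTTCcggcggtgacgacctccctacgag
In Rps10 the capitals CTTCC begin at the annotated start itself, and in Rps27 a run lies on each side of it. None of the motifs in capitals occurs in the stretches shown of Rps2 and Rpl27, which says only that these letters are not there. One of the CTTTC and CTTCC runs was present in 37 of 55 members with a positive and in 7 of 7 with a negative log2 fold change.

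Between genotypes, ribosomal protein mRNAs had mostly higher values in KO, by small amounts, and no single member passed the test. The 86 members took 2.63%, 2.88%, 3.62% and 3.0% of all counts in KO 1 to 4, and 2.23%, 2.32%, 2.85% and 2.63% in WT 1 to 4. KO 3 was the highest and WT 1 the lowest, and the groups overlapped, since KO 1 lay below WT 3 and WT 4. In bulk samples, fewer cells of a type and less RNA per cell cannot be told apart. KO 3 also had the most melanoma RNA, and WT 1 and WT 2, the lowest in ribosomal protein share, had the least. It was the library with the highest value for 66 of the 86 members, and WT 1 was the lowest for 48.

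**Figure D1:**
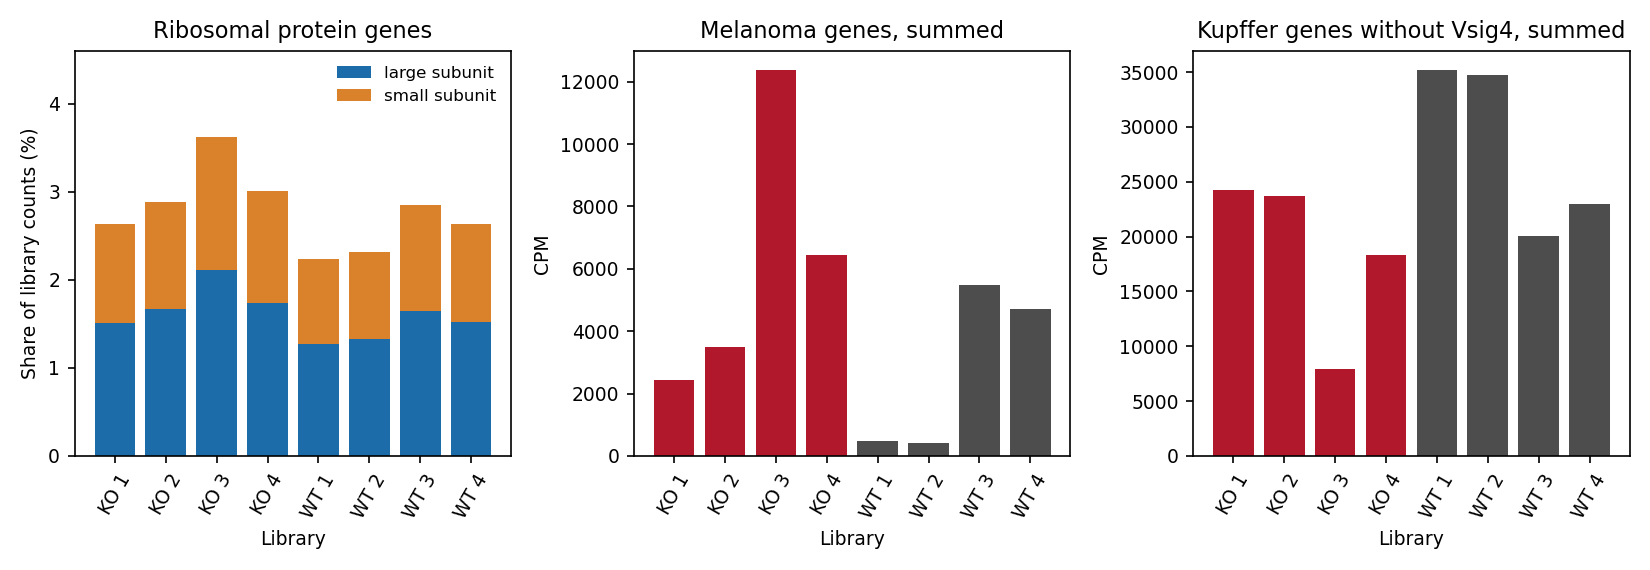
Bars give, for each library, the share of all counts in large and small subunit genes (left, %), and the summed CPM of 10 melanoma genes (middle) and of the Kupffer list without Vsig4 (right). KO 3 is the highest library in the left and middle panels, at 3.62% and 12376 CPM, and the lowest in the right one, at 7892 CPM.

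In edgeR's quasi-likelihood test with Benjamini-Hochberg adjustment over 15870 genes, 0 of 86 members passed an adjusted p of 0.05, and the smallest member value was adjusted p = 0.492. Over all genes 0.0063% passed, which is Vsig4 alone, and 0.0% were higher. At an unadjusted p under 0.05, 4 members were higher and 0 lower, against 4.23% higher and 4.56% lower over all genes. DESeq2 and limma also called 0 members at the adjusted threshold. The unadjusted count differed between methods, with 24 members higher and 1 lower in DESeq2 and 11 and 2 in limma. The shares over all genes were not counted for these 2 methods at that cut. Their member counts can therefore not be read as an excess or a shortage against all genes. The log2 fold change was positive for 74 of 86 members, against 49.6% of all genes, and its median was 0.17, against -0.0028 for all genes. The groups did not overlap in 5 members, all higher in KO, against 2.71% of all genes higher and 2.85% lower. With the mean melanoma level as a covariate the members' median was 0.089, with 80 positive against 52.9% of all genes. Without KO 3 it was 0.093, with 71 positive against 49.9%. Without KO 3, WT 1 and WT 2, a choice made after seeing the data, it was 0.057, against -0.0002 for all genes. There 71 of 86 members were positive, against 8017 of the 15870 genes. Members with more than 20 CPM varied more between KO than between WT libraries, with a median coefficient of variation of 11.4% in KO and 7.21% in WT over 82 genes.

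The libraries of the genotypes carry the same numbers 1 to 4, and with that number as a block, 5 of 86 members rose in KO and 0 fell, against 8.98% of all genes higher and 5.01% lower. The members were Rpl36, Rpl27, Rpl8, Rps10 and Rps2. Leaving out both libraries of any 1 number left 0 of 86 members called, while the count over all genes was 207, 2, 1 and 2229 without numbers 1, 2, 3 and 4. The pairing is read from these data and not stated in the labels, so these blocked calls rest on that reading. In both genotypes numbers 3 and 4 had more melanoma RNA than 1 and 2, and pairs of animals and this shared order cannot be told apart. Of the 10 melanoma genes, 9 were called higher with the same block.

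**Figure D2:**
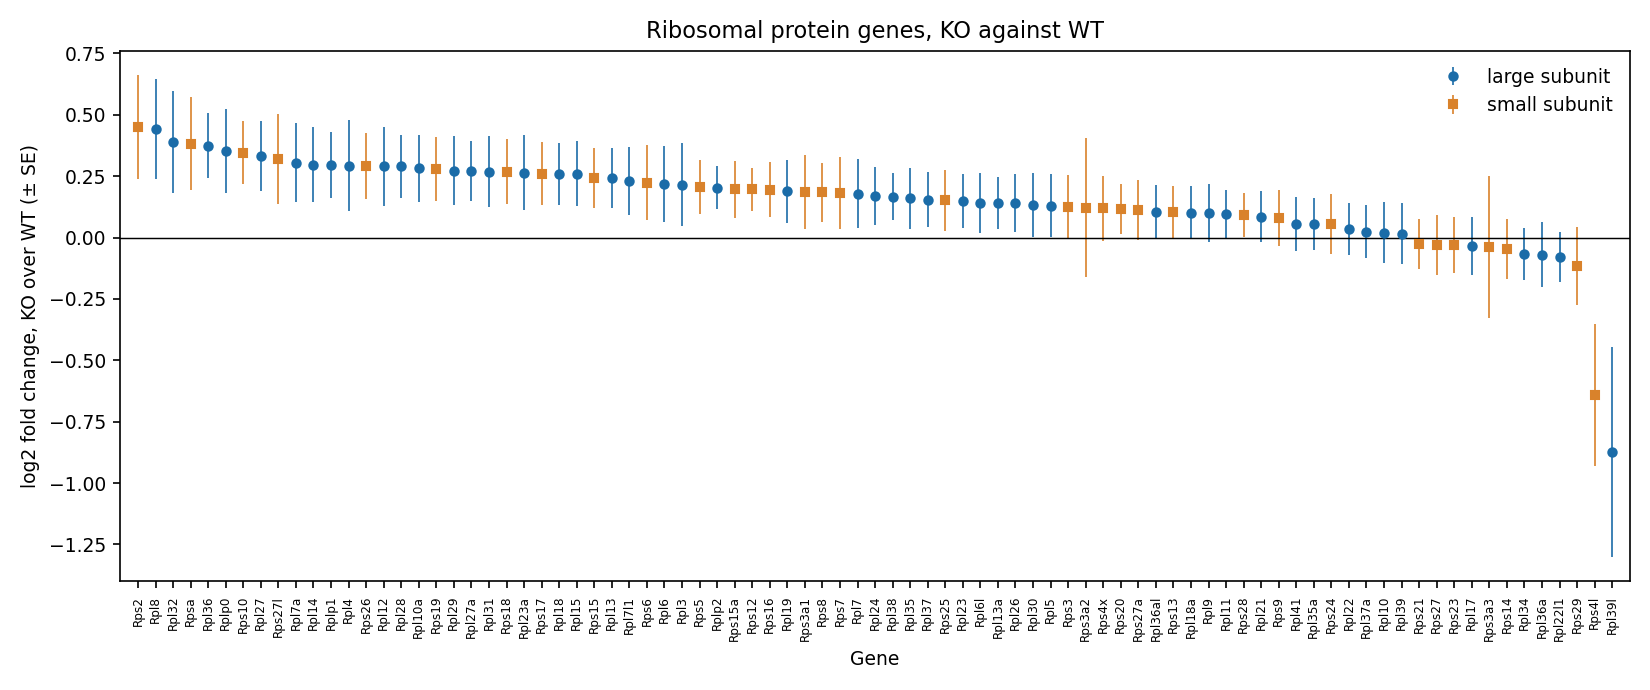
Points give the log2 fold change of the members reported here, KO over WT, with its SE, in falling order and coloured by subunit. Most lie above 0, from Rps2 at 0.45 down, and the outliers at the right end are the copies Rps4l and Rpl39l.

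The largest positive differences were in genes of both subunits, and KO 3 was the highest library in each of the first 3 described (log2 fold changes ± SE). Rps2, which forms part of the mRNA entry channel, had 604, 738, 1085 and 860 CPM in KO 1 to 4, and 516, 518, 691 and 680 CPM in WT 1 to 4 (log2 fold change 0.45 ± 0.212; edgeR adjusted p = 0.492, and 0.0465 with the block). All libraries of KO but KO 1 lay above the highest WT library. With the melanoma covariate its log2 fold change was 0.16, and without KO 3 it was 0.29. Rpl8, near the peptidyl transferase centre, is named after its values were seen. It had 398, 438, 701 and 536 CPM in KO 1 to 4, and 336, 332, 436 and 422 CPM in WT 1 to 4 (log2 fold change 0.44 ± 0.203; edgeR adjusted p = 0.492, and 0.0451 with the block). Again KO 1 alone lay within the range of WT, and its log2 fold change was 0.16 with the melanoma covariate and 0.26 without KO 3. Rpl36, a small large-subunit protein, had 83.0, 99.7, 120 and 96.4 CPM in KO 1 to 4, and 69.5, 71.3, 86.9 and 80.3 CPM in WT 1 to 4 (log2 fold change 0.37 ± 0.133; edgeR adjusted p = 0.492, and 0.0357 with the block). Its log2 fold change was 0.21 with the melanoma covariate and 0.27 without KO 3. Rpl27 (0.33 ± 0.143; edgeR adjusted p with the block 0.0425) and Rps10 (0.35 ± 0.129; 0.0455) were the others called with the block.

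**Figure D3:**
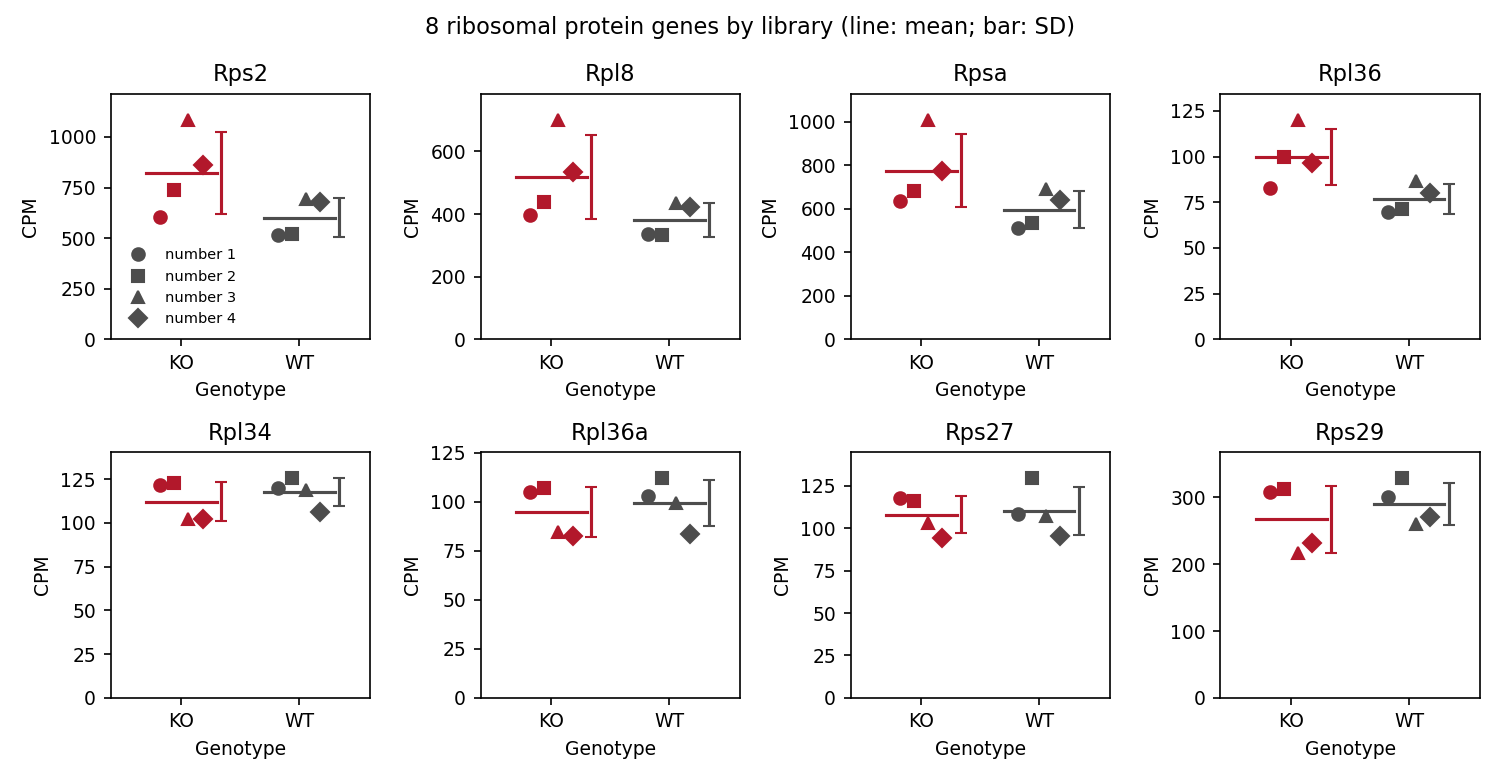
Points give the CPM of 8 members in each library by genotype, with shapes for the library number, a line for the mean and a bar for the SD (n = 4). In the upper row KO 3 is the highest of 8 libraries. The genotypes overlap in every gene of both rows.

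The 5 members without overlap were not those with the largest differences. Rplp2, the partner of Rplp1 in the stalk, had 119, 136, 119 and 127 CPM in KO 1 to 4, and 113, 106, 106 and 111 CPM in WT 1 to 4 (log2 fold change 0.20 ± 0.0873; edgeR adjusted p = 0.492). Its value was not highest in KO 3, and its log2 fold change was 0.22 with the melanoma covariate and 0.23 without KO 3. Rps12, a protein of the small subunit head, had 178, 185, 190 and 175 CPM in KO 1 to 4, and 153, 156, 168 and 159 CPM in WT 1 to 4 (0.20 ± 0.0882; edgeR adjusted p = 0.492). Here the KO libraries lay close together, with the lowest coefficient of variation of any member in KO, 3.87%. Among the others were Rpl23 (0.15 ± 0.110) and Rpl27a (0.27 ± 0.121), log2 fold changes, the second named after its values were seen.

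By role, the stalk genes stood above the median of the members. All 4 were positive: Rplp0, the stalk's base, at 0.35 ± 0.171, Rplp1 at 0.30 ± 0.136, Rpl12, which binds beside it, at 0.29 ± 0.160, and Rplp2 as given, with a median log2 fold change of 0.29, and 0.16 with the melanoma covariate. Rplp0 had 632, 704, 960 and 833 CPM in KO 1 to 4, and 540, 580, 655 and 679 CPM in WT 1 to 4, so KO 1 lay among the WT libraries. The genes whose free proteins bind the p53 regulator Mdm2 were nearer 0, with Rpl5 at 0.13 ± 0.128, Rpl11 at 0.10 ± 0.0986 and Rpl23 as given. Rpl5 had 512, 521, 615 and 495 CPM in KO 1 to 4, and 485, 514, 519 and 442 CPM in WT 1 to 4, with wide overlap. The other entry channel genes Rps3 and Rps9 had log2 fold changes of 0.13 ± 0.129 and 0.08 ± 0.113, against 0.45 for Rps2.

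The 20 genes mutated in Diamond-Blackfan anaemia, a red cell disorder of ribosome shortage, had 18 positive and 2 negative log2 fold changes. Their median was 0.17, close to that of all members, and 0.094 without KO 3. Of the 20, Rpl27 and Rps10 were called with the block, against 8.98% of all genes higher, and neither call held with any 1 number left out. Of the 8 genes at the peptide exit tunnel and its mouth 7 were positive, with a median of 0.17, and 0.11 without KO 3. All 6 genes with reported roles outside the ribosome were positive, with a median of 0.18. That median was 0.060 with the melanoma covariate, 0.0997 without KO 3, with 5 of 6 positive, and 0.026 without KO 3, WT 1 and WT 2, with 4 of 6 positive. Among them Rpsa, also known as the laminin receptor, had 636, 682, 1009 and 776 CPM in KO 1 to 4, and 512, 537, 692 and 643 CPM in WT 1 to 4 (0.38 ± 0.189; edgeR adjusted p = 0.492, and 0.0551 with the block; 0.14 with the covariate). Rps6, the target of the S6 kinases, was at 0.22 ± 0.154, and at 0.053 with the covariate, Rpl13a, which silences inflammatory mRNAs in human myeloid cells, at 0.14 ± 0.106, and the scaffold Rack1, outside the symbol rule, at 0.22 ± 0.138. Rps27a, made as a fusion with ubiquitin, was at 0.11 ± 0.123, and Fau, made as a fusion with a ubiquitin-like protein, at -0.08 ± 0.124.

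Negative values were few and, apart from the copies Rpl39l and Rps4l, close to 0. The 12 members were Rpl39l, Rps4l, Rps29, Rpl22l1, Rpl36a, Rpl34, Rps14, Rps3a3, Rpl17, Rps23, Rps27 and Rps21, of which Rps29, Rpl34, Rps14, Rpl17, Rps23 and Rps21 are named after their values were seen. Rps29, a short zinc-binding protein of the small subunit, had 309, 313, 217 and 232 CPM in KO 1 to 4, and 301, 329, 260 and 271 CPM in WT 1 to 4 (log2 fold change -0.12 ± 0.159; edgeR adjusted p = 0.692). In both genotypes libraries 3 and 4, those with more melanoma RNA, were lower than 1 and 2, and with the melanoma covariate the log2 fold change was 0.065. Rpl36a had 105, 107, 84.9 and 82.4 CPM in KO 1 to 4, and 103, 112, 99.3 and 83.7 CPM in WT 1 to 4 (-0.07 ± 0.133; 0.079 with the covariate). Rps27 (-0.03 ± 0.123) was likewise positive with the covariate, at 0.10. Rpl34 (0.024), Rpl17 (0.060), Rps23 (0.020) and Rps21 (0.053) were positive with the covariate too, so the sign of 7 of the 12 turned with it. In limma, where the median of all genes was 0.055, 9 of the 12 turned positive.

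Between subunits the difference was small. Large subunit genes took 1.76 ± 0.254% of counts in KO and 1.44 ± 0.174% in WT (SD, n = 4), and small subunit genes 1.28 ± 0.166% in KO and 1.07 ± 0.114% in WT. Positive log2 fold changes were found for 46 of 51 large and 28 of 35 small subunit members, with medians of 0.17 and 0.16. The difference of the medians was 0.015, and it lay between -0.0067 and 0.019 when single libraries were left out. Summed FPKM of the large over the small subunit was 1.35, 1.38, 1.43 and 1.39 in KO 1 to 4, and 1.30, 1.31, 1.37 and 1.39 in WT 1 to 4, with overlap.

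Within the members, the log2 fold change went with coding length and GC content, a pattern looked for after the data were seen. Coding length and GC content were taken from 1 principal GENCODE M21 transcript, which 82 of 86 members have. Across these genes, Spearman's rho of the log2 fold change was 0.38 with coding length, 0.25 with the length of the whole mRNA and 0.42 with GC content. Over the 13156 tested genes with a value it was 0.015 for coding length and 0.035 for GC. By subunit, rho with GC was 0.53 in large and 0.28 in small subunit members, and with coding length 0.40 and 0.34. The genes share the same 8 libraries, so the values describe the members and are not a test. With the melanoma covariate the members' rho was 0.058 for coding length and 0.48 for GC, and without KO 3 it was 0.29 for coding length and 0.52 for GC. Over all genes with a value, rho for GC was 0.072 with the covariate and 0.091 without KO 3. The 15 members with the longest coding sequence, 729 to 1257 bases, had 15 positive log2 fold changes and a median of 0.22. The 15 shortest, 75 to 330 bases, had 10 positive and 5 negative, and a median of 0.055. The negative ones include Rpl39l, whose lower value in KO is not independent of the count limit for members. The summed CPM of the longest over the shortest was 3.49, 3.62, 5.09 and 4.63 in KO 1 to 4, and 3.39, 3.27, 3.99 and 3.90 in WT 1 to 4. KO 3 and KO 4 lay above all WT libraries, and in both genotypes libraries 3 and 4 were higher than 1 and 2. The same order is seen in Rps2 over Rps29, which was 1.96, 2.36, 5.00 and 3.71 in KO 1 to 4, and 1.71, 1.58, 2.66 and 2.51 in WT 1 to 4. The part of melanoma RNA in this was tested no further than by the covariate.

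**Figure D4:**
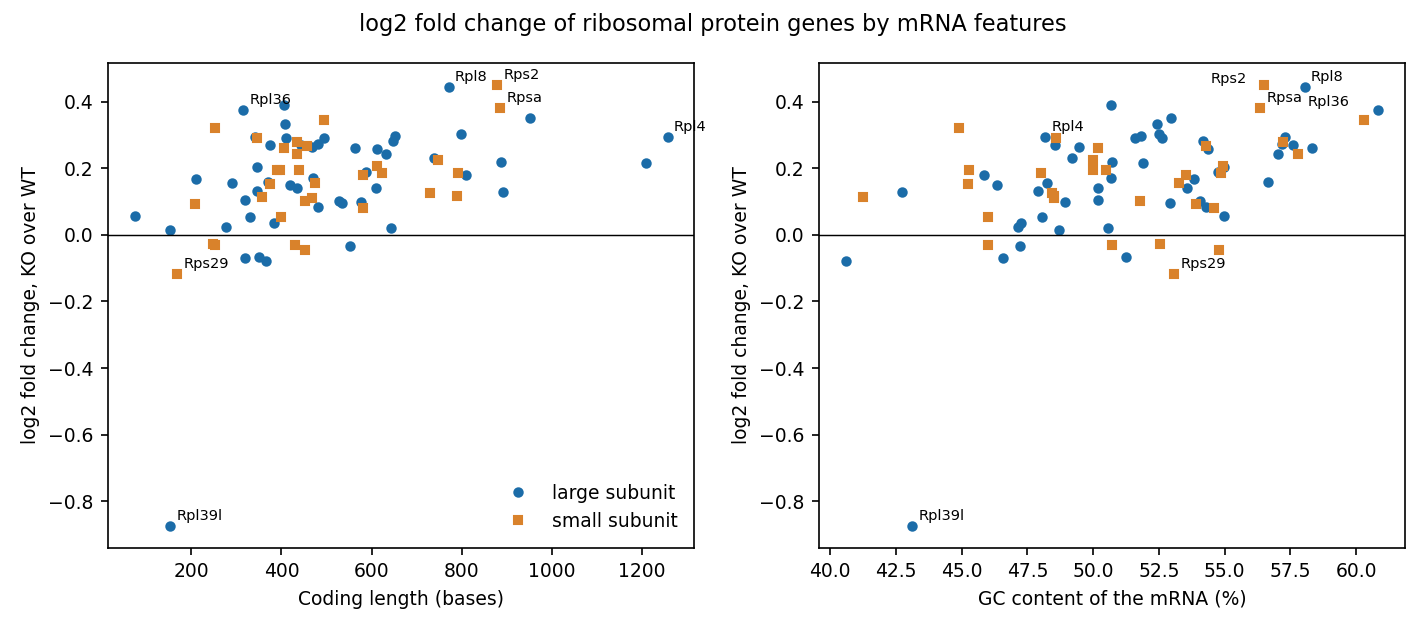
Points give the log2 fold change, KO over WT, of the 82 members with a transcript, against coding length in bases (left) and GC content of the mRNA in % (right), coloured by subunit. The longest members, such as Rps2, Rpsa and Rpl4, lie above 0, while Rps29 and Rpl39l among the shortest lie below. Rpl39l rests on 5 to 16 counts a library, and its lower value in KO is not independent of the count limit.

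Several ribosomal proteins have a second gene, and 6 such pairs could be compared within a library, where scaling plays no part. The percentages that follow divide by the exonic size of each gene, so they compare libraries with each other and depend, as levels, on the size used. None of the 6 ratios of paralogue to parent passed the exact 2-sided permutation test with Benjamini-Hochberg adjustment over the pairs. All 6 overlapped between genotypes. The smallest p possible is 0.0286, so 1 separated pair alone could not pass after the adjustment. Rps4l, a copy of the X-linked Rps4x, had an FPKM of 0.911%, 1.71%, 0.548% and 1.36% of its parent's in KO 1 to 4, and 2.03%, 2.10%, 1.496% and 1.89% in WT 1 to 4 (log2 ratio difference -0.84; exact permutation p = 0.0571, adjusted p = 0.229). KO 2 alone lay within the range of WT, and without KO 3 the log2 ratio difference was -0.54. Rps4l itself had 5.40, 10.3, 4.04 and 8.19 CPM in KO 1 to 4, and 11.5, 12.2, 9.28 and 10.6 CPM in WT 1 to 4, on 73 to 218 counts a library. Its log2 fold change was -0.64 ± 0.289 (edgeR adjusted p = 0.492, and 0.0589 with the block), and -0.45 with the melanoma covariate. Rpl39l, a copy of the exit tunnel protein Rpl39 known from the male germ line, was at 0.434 ± 0.285% of Rpl39 in KO and 0.771 ± 0.240% in WT (SD, n = 4; exact permutation p = 0.114, adjusted p = 0.229). It rests on 5 to 16 counts a library. Rpl39l was kept through KO 4 and WT 1 to 3, so its lower value in KO is not independent of that limit.

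Rpl22l1, which can replace the T cell development factor Rpl22 in the ribosome, was at 92.8 ± 4.09% of the FPKM of Rpl22 in KO and 100.1 ± 5.54% in WT (exact permutation p = 0.114, adjusted p = 0.229). Rps27l, a p53 target, was at 73.1%, 86.4%, 140% and 111% of Rps27 in KO 1 to 4, and at 67.8%, 59.1%, 94.9% and 102% in WT 1 to 4 (exact permutation p = 0.286, adjusted p = 0.429). This ratio and that of Rpl36al to Rpl36a were higher in libraries 3 and 4 of both genotypes than in 1 and 2, again those with more melanoma RNA. Rpl36al was at 108 ± 23.9% of Rpl36a in KO and 94.6 ± 7.96% in WT (exact permutation p = 0.371, adjusted p = 0.446), and Rpl7l1 at 12.5 ± 0.879% of Rpl7 in KO and 12.2 ± 1.04% in WT (exact permutation p = 0.657, adjusted p = 0.657). Per length of 1 mature mRNA, over all 8 libraries, the paralogues stood lower against their parents, Rpl22l1 at 56.5%, Rps27l at 48.7%, Rpl36al at 75.0%, Rpl7l1 at 7.19% and Rpl39l at 0.259%.

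**Figure D5:**
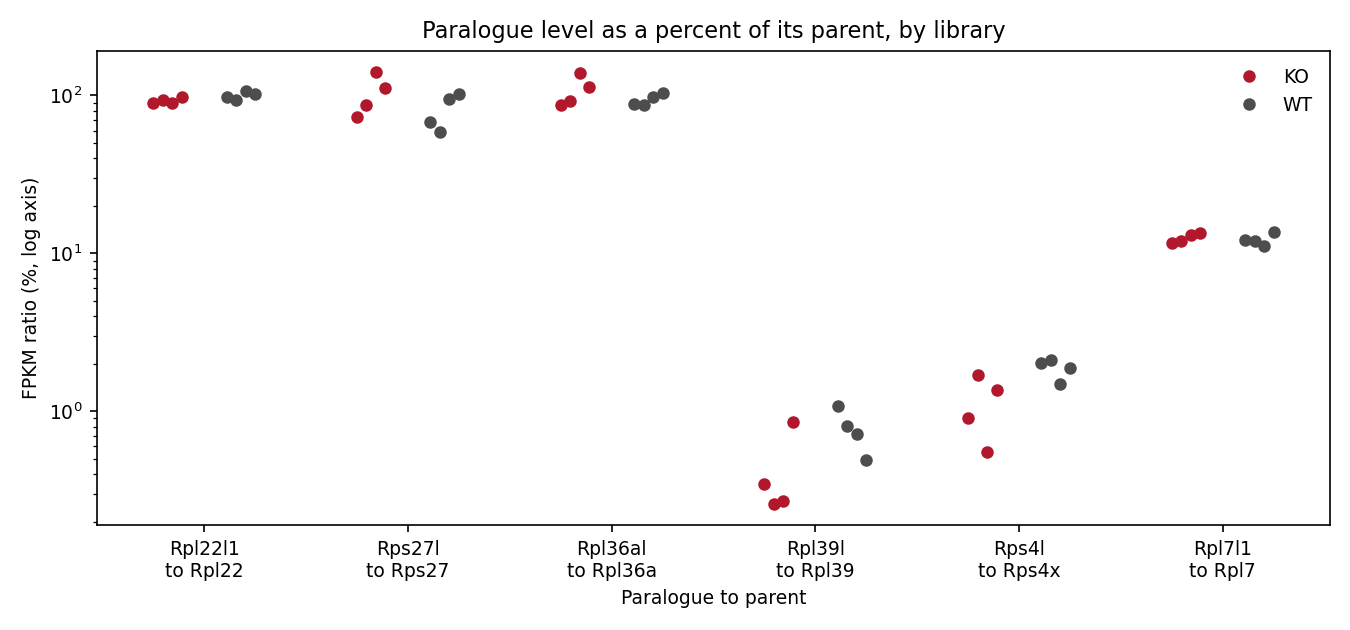
Points give, on a log axis, the FPKM of each paralogue as a percentage of its parent's in each library, KO left of WT in each pair. The genotypes overlap in all 6 pairs; the heights of the pairs depend on the exonic sizes by which FPKM divide.

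Copies could also take reads from their parents. The table lists 321 pseudogenes of members, for 64 parents, which together held 0.0888 ± 0.0131% of counts in KO and 0.0724 ± 0.0101% in WT (SD, n = 4). For 10 parents they held more than 10% of the summed counts of parent and copies, and for Rps10 more than 50%. Rps10-ps2 had 1188 to 1683 counts in KO and 819 to 1185 in WT, while Rps10 had 811 to 1107 in KO and 505 to 771 in WT. The level of Rps10 is therefore uncertain, and its log2 fold change was 0.25 with the copies added to it and 0.35 without. Rps3a2, Rps3a3, Rps4l and Rpl6l carry names of copies and are uncertain for the same reason.

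Genes that work with the ribosome were set beside its proteins, from lists of the same pathway. In each of these lists 0 genes passed edgeR's adjusted threshold without the block. With the block and both libraries of number 2 or 3 left out, 2 and 1 of all genes were called. At most that many of the blocked calls below could hold there. Of 40 ribosome biogenesis genes, 38 had positive log2 fold changes, with a median of 0.41. At an unadjusted p under 0.05 were 11, against 4.23% of all genes higher, and 17 rose with the block, against 8.98%. Their median was 0.11 with the melanoma covariate, 0.23 without KO 3 and 0.061 without KO 3, WT 1 and WT 2, with 26 of 40 positive in the last. The 10 proliferation genes, such as Mki67, summed to 950 to 2332 CPM in KO and 507 to 1182 CPM in WT, with 10 positive, and their part in these values was not tested. The nucleolar chaperone Npm1 had 590, 710, 1488 and 820 CPM in KO 1 to 4, and 391, 410, 851 and 739 CPM in WT 1 to 4 (log2 fold change 0.59 ± 0.367; edgeR adjusted p = 0.492, and 0.0360 with the block). It was highest in KO 3 and lowest in WT 1 and WT 2, the libraries with the most and the least melanoma RNA, and with the covariate its log2 fold change was 0.014. Ubtf, which drives transcription of ribosomal RNA genes, had 142, 147, 184 and 156 CPM in KO 1 to 4, and 117, 112, 127 and 134 CPM in WT 1 to 4, without overlap (0.36 ± 0.117; edgeR adjusted p = 0.492, and 0.0443 with the block; 0.22 with the covariate). Mdn1, the ATPase that strips factors from the maturing large subunit, was at 0.26 ± 0.0846, and at 0.27 with the covariate.

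Of 26 translation factors and other genes listed for TOP mRNAs, 23 were positive with a median of 0.23, and 5 rose with the block, against 8.98% of all genes higher. Their median was 0.051 with the melanoma covariate and 0.12 without KO 3. This list overlaps others, with Npm1 at its highest log2 fold change, 0.59, and Fau at its lowest, -0.08. The elongation factor subunits Eef1d (0.41 ± 0.164; edgeR adjusted p with the block 0.0387) and Eef1g (0.38 ± 0.163; 0.0496) were among the 5. Tpt1, an abundant TOP mRNA, had 1092 ± 137 CPM in KO and 1148 ± 85.8 CPM in WT. Of 14 tested genes of growth signalling to ribosomes, such as Mtor and Rptor, 9 were positive and 5 negative, with a median of 0.082, and 0 were called with the block. The 78 mitochondrial ribosomal protein genes, which serve the separate ribosome of mitochondria, had 72 positive log2 fold changes and a median of 0.25, and 13 rose with the block, against 8.98% of all genes. Their median was 0.078 with the covariate and 0.12 without KO 3.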

How the data were processed

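RNA-seq of 4 KO and 4 WT libraries was analysed. Raw gene counts and the authors' FPKM stand side by side in the deposited table, per the file headers, with exonic sizes and positions as other numbers. HTSeq 0.6.1 and mm10 are named in the submitters' processing notes; the sources used here give no aligner, strandedness or gene annotation version, so overlapping genes and near-identical copies are uncertain. Column letters K and C were read as KO and WT, and digits as title numbers. Positions in the table name no build and are not used.

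Counts were filtered by filterByExpr (15870 genes), scaled by TMM and tested by the quasi-likelihood F test of edgeR 4.0.16 under R 4.3.3 with Benjamini-Hochberg adjustment. The biological coefficient of variation was 33.3%. Paralogue ratios were compared by exact permutation over 70 splits. Alternatives used DESeq2 1.42.0, limma 3.58.1 on log2(FPKM + 1), other scaling and filters, the replicate block, a melanoma covariate (mean log2 CPM of the 10 genes, prior count 2), pseudogenes added to parents, and each library left out. The method was tested on simulated data. Members and lists were chosen with earlier results of these data known. Members named are the most and least expressed and those with the smallest p of each subunit, paralogues, and short role lists; further ones are marked, and a few genes that this rule takes are not reported here. Deviations from genotype means correlated between same-numbered libraries at 0.561, 0.544, 0.660 and 0.290, so the numbers were taken to pair them. Correlations between libraries of different number were not computed, so these values cannot tell pairs from an order shared by the genotypes. Total counts of 15264043 to 19513844 per library set the counting precision.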

Additional observations from a re-analysis of the deposited data

Results flagged for a closer look

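In groups of 4 libraries, a library was picked out where its gap to the nearest other was larger than Dixon's 95% critical share of the group's range. Of 148 groups looked at 4 were picked out, and chance does so in about 1 in 20. Rps3a1 stood at 986 CPM in KO 3, above 729 to 760 CPM in the other KO libraries. Rps4x stood at 901 CPM in KO 3, above 724 to 738 CPM in the other KO libraries. Rps15 stood at 326 CPM in WT 3, above 290 to 295 CPM in the other WT libraries. The FPKM of Rpl39l as a percentage of Rpl39 stood at 0.857% in KO 4, above 0.259% to 0.347% in the other KO libraries, on fewer than 20 counts.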

How the results depend on the processing

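All genes called numbered 1, and 62 in DESeq2, 2 without a filter on low counts and 2220 with the replicate block. With the block and, as an alternative chosen after seeing the data, both libraries of number 1, 2, 3 or 4 left out, they numbered 207, 2, 1 and 2229. Members called numbered 0, and 5 with the replicate block, but 0 with the block and any number left out. Leaving out single libraries gave 1 to 2 genes, 0 members, a member median of 0.0925 to 0.205 and a large minus small difference of -0.0067 to 0.019. Without KO 3, WT 1 and WT 2, chosen after seeing the data, the member median was 0.0575, against 0.17. Paralogue calls numbered 0 throughout. The smallest permutation p possible, 0.0286, could not pass for 1 pair alone after adjustment over the 6 pairs. With the block fewer arrangements exist and no pair could have been called, so that 0 carries no weight. The block changed no other call of a member. The causes were not tested.

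Signs turned for 8 of 86 members with the melanoma covariate, 9 in limma and 17 without KO 3, WT 1 and WT 2. FPKM in limma are not TMM-scaled, and the median of all genes there is 0.055. Among genes named, signs turned on the log2 scale with the covariate for Rps3a2 (-0.13), Rps27 (0.10), Rpl36a (0.079), Rps29 (0.065), Rpl34 (0.024), Rpl17 (0.060), Rps23 (0.020), Rps21 (0.053), Fau (0.062), Tpt1 (0.051) and Max (0.0094). They turned in limma for Rps3a3 (0.029), Rpl22l1 (0.012), Rps27 (0.061), Rpl36a (0.016), Rpl34 (0.018), Rps14 (0.046), Rpl17 (0.052), Rps23 (0.058), Rps21 (0.065), Fau (0.0056) and Tpt1 (0.010). Without KO 3, WT 1 and WT 2 they turned for Rps3a2 (-0.20), Rpl22 (-0.0081), Rps27l (-0.037), Rps27 (0.11), Rpl36a (0.10), Rps29 (0.10), Rpl34 (0.039), Rpl17 (0.069), Rps23 (0.020), Rps21 (0.057), Rps27a (-0.0076), Fau (0.12), Rps6 (-0.0032), Eef1a1 (-0.0063), Tpt1 (0.072), Npm1 (-0.17), Ncl (-0.077), Mxd4 (0.015) and Max (0.064). Leaving out single libraries gave ranges across 0 for Rpl22 (-0.010 to 0.087), Rpl39 (-0.061 to 0.091), Rps27 (-0.095 to 0.057), Rps3a2 (-0.042 to 0.28), Rps3a3 (-0.17 to 0.074), Rpl17 (-0.092 to 0.0090), Rps14 (-0.0997 to 0.0034), Rps21 (-0.092 to 0.016), Rps23 (-0.070 to 0.0058) and the Rpl7l1 to Rpl7 ratio (-0.0005 to 0.097). For single genes and ratios 1115 values kept their sign and side of the threshold and 12 passed it newly. Depth limits Rpl39l, Rps3a2 and Rps3a3, which have at most 52 counts in any library.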
